A study of Homo sapiens with 16 samples.

Results

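The E2F transcription factors, their dimerization partner TFDP1 (DP1) and the pocket protein RBL1 (p107) were followed across 2 pancreatic carcinoma cell lines treated with gemcitabine, genistein or both. The 10 genes, E2F1 to E2F8, TFDP1 and RBL1, were taken by symbol from the 63501 Ensembl identifiers of the gene expression table. All 10 had enough reads to be tested in both lines. The symbol RBL1 was also carried by a further identifier, ENSG00000269846, an RNA gene on the opposite strand, and its values are given apart from those of RBL1.

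E2F proteins bind DNA as dimers with a DP protein and govern the genes that carry a cell from G1 into S phase. In resting and early G1 cells the pocket proteins (RB1, RBL1 and RBL2) bind E2F and hold target genes down, and phosphorylation by cyclin-dependent kinases releases them. E2F1, E2F2 and E2F3 are classed as activators, E2F4, E2F5 and E2F6 as repressors, and E2F7 and E2F8 as atypical repressors that need no DP partner. The E2F1, E2F2, E2F7, E2F8 and RBL1 genes are themselves known E2F targets, and the pathway is commonly disturbed in pancreatic cancer through loss of CDK inhibitors.

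MiaPaCa2 and PANC1 (Mia-PaCa-2 and PANC-1 in the labels) are established human pancreatic carcinoma lines grown in serum-containing DMEM. The control cells of each line received neither drug, and the treated cells received 40 nM gemcitabine, a nucleoside analogue that disturbs DNA replication, 50 uM genistein, a soy phytoestrogen, or the combination, all for 24 hours. Each of the 8 groups had 2 libraries, labelled I and II and described in the study's methods as biological replicates, which gave 16 libraries of polyadenylated RNA. With 2 libraries per group the p-values rest on a spread borrowed across genes, and no other source says whether I and II were separate cultures. Values for a group are given below in the order replicate I, replicate II.

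Between 12943482 and 31991860 reads per library were counted on genes. The cytokeratins KRT8, KRT18 and KRT19 had at least 740 counts in every library, whereas in MiaPaCa2 the epithelial markers KRT7 and CDH1 had at most 9 and 2 counts, and EPCAM was at 0 in all 8 libraries. The 9 markers of leukocytes, endothelium, acinar cells and fibroblasts reached at most 4 counts in any library. The libraries differed in how counts varied with the GC content of a gene. The slope over all genes, in log2 CPM per 10 points of GC, was -0.23 and -0.14 in the MiaPaCa2 controls against 0.14 and 0.05 under gemcitabine and 0.05 and 0.29 under both drugs. The PANC1 controls had slopes of 0.29 and -0.07, and the PANC1 combination libraries -0.16 and 0.23. In their counts the PANC1 controls differed most of all replicate pairs (chi-square per degree of freedom 35.2, against 2.86 to 21.6 in the other 7 groups). GC-corrected values and values without single libraries are given beside some of the results they touch. In these bulk samples, fewer cells of a type and less RNA per cell cannot be told apart.

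Upstream sequences are shown because several of these genes carry, close to their start sites, the letters that E2F factors are known to bind. The RefSeq promoter table (GRCh38.p14) was searched on both strands, over the 250 bases before each start, for TTTCGCG and TTTGGCG, which do not overlap in these genes. Windows were used for 8 of the 10 genes, with 9 start sites, and none was used for E2F5 or E2F8. Either word was found in 5 of the 8 genes, compared with 2.65% of all 35116 promoters. The members are counted by gene over any start, and the share over all is counted by promoter. Both words were found in E2F1, E2F2 and RBL1, compared with 0.0370% of all promoters, and TFDP1 held TTTCGCG on its opposite strand, near the middle of the window. The last 120 bases before the start are printed 5′ to 3′ for E2F1, E2F2 and RBL1, for the upstream start of E2F3, and for E2F7, whose window holds neither word. Capitals mark the words.
E2F1 (chr20:33686386-33686505, minus strand): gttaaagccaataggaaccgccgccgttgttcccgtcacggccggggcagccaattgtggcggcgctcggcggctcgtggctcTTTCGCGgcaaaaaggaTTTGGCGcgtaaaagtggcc
E2F2 (chr1:23531234-23531353, minus strand): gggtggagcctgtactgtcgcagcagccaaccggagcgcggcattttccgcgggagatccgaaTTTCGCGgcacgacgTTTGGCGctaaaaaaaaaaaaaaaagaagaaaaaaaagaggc
RBL1 (chr20:37095998-37096117, minus strand): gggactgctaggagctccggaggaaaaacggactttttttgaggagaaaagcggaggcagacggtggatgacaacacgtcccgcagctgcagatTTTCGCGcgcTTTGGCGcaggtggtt
E2F3 (chr6:20401759-20401878, plus strand): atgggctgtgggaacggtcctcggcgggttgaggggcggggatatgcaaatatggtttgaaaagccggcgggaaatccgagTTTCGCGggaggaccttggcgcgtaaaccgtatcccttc
E2F7 (chr12:77065570-77065689, minus strand): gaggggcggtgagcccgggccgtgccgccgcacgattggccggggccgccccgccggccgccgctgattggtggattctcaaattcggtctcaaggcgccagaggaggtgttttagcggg
The words ended 31 and 14 bases before the start in E2F1, 51 and 36 in E2F2, 20 and 10 in RBL1, and 33 in E2F3. A match is a description of the letters and not a bound site, and the absence of these words from the windows of E2F4, E2F6 and E2F7 says nothing about the factors that act there.

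In untreated cells TFDP1 and E2F4 were the most abundant members per length (FPKM, reads scaled to transcript length and library size) and the atypical E2Fs and RBL1 were among the least. In MiaPaCa2 controls the mean level was 104.7 ± 8.26 FPKM for TFDP1, 99.2 ± 6.03 for E2F4, 29.1 ± 1.10 for E2F1, 13.7 ± 2.17 for E2F5 and 11.9 ± 0.342 for E2F3 (SD, n = 2). E2F6 followed at 9.24 ± 0.336, E2F2 at 5.93 ± 0.0497, RBL1 at 5.70 ± 0.0336, E2F7 at 4.92 ± 0.0760 and E2F8 at 4.18 ± 0.222. The values of TFDP1 and E2F4 overlapped, as did those of E2F5 and E2F3, and the other neighbours in this order did not. In PANC1 controls the order was TFDP1 (79.4 ± 1.96 FPKM), E2F4 (63.7 ± 11.4), E2F1 (48.8 ± 6.40), E2F5 (27.8 ± 1.09), E2F6 (14.8 ± 0.425), E2F3 (11.9 ± 2.65), E2F2 (6.29 ± 0.459), E2F7 (5.32 ± 0.540), E2F8 (5.12 ± 0.888) and RBL1 (5.06 ± 1.01). The last 3 overlapped one another. E2F1 thus ranked behind E2F4 in both lines, and all 10 members were above 1 FPKM in every library. The log2 fold changes below come from normalized counts instead. They can differ from the listed FPKM in size and, where a change is small, in sign.

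**Figure D1:**
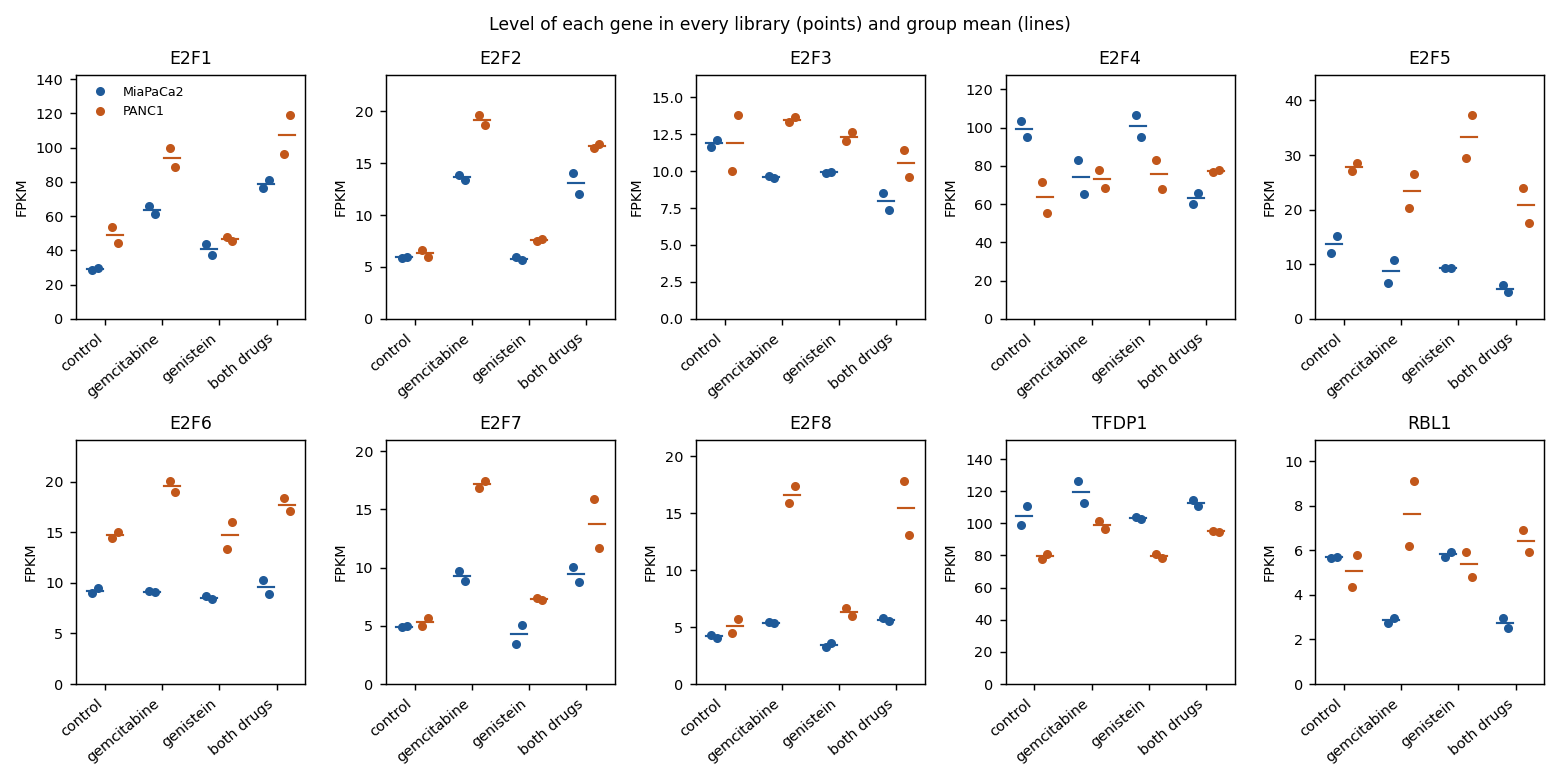
Levels of the 10 genes in each library (points, FPKM on a linear axis from 0) for control, gemcitabine, genistein and both drugs in MiaPaCa2 and PANC1, with the mean of each group as a line. E2F1 moved from 28.3 and 29.9 FPKM in MiaPaCa2 controls to 76.5 and 81.1 with both drugs, and RBL1 from 5.67 and 5.72 to 2.97 and 2.50.

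Across the treatments, a gene was called when limma-voom gave a Benjamini-Hochberg adjusted p of at most 0.05 over all genes tested, the absolute log2 fold change was at least 0.4 and the mean of the treated group was above 1 FPKM. Treated and control libraries often did not overlap. In normalized CPM this held for 74.1% of all genes with gemcitabine in MiaPaCa2 and 54.2% in PANC1. The shares were 75.4% and 52.9% with both drugs and 59.9% and 48.8% with genistein. Of the 10 members, 10 and 6 did not overlap with gemcitabine, 8 and 7 with both drugs, and 6 and 2 with genistein. Overlap is described below in FPKM. With gemcitabine 7 of the 10 members were called in MiaPaCa2, where 29.6% of 16064 genes were called, and 4 of 10 in PANC1, where 7.52% of 16909 were. With both drugs 7 members were called in MiaPaCa2 (background 40.5%) and 5 in PANC1 (background 17.1%). The members were chosen with earlier results of these data known, so these shares are not a test of the family. Of the 3 other DP and pocket-protein genes tested (TFDP2, RB1 and RBL2), 0 were called with gemcitabine or both drugs in either line. With genistein alone E2F1 was the single member called in MiaPaCa2 (background 8.31%). In PANC1 0 were called by limma-voom (background 0.0591%), edgeR or DESeq2, and 0 were below an unadjusted p of 0.05 by limma-voom. Over all genes, edgeR called 12 and DESeq2 694 of 16909 in that PANC1 comparison. E2F1, E2F2 and E2F7 rose in both lines with gemcitabine and with both drugs. E2F8 rose in PANC1, and E2F3, E2F4, E2F5 and RBL1 fell in MiaPaCa2. E2F5 also fell in PANC1 with both drugs. The PANC1 count with gemcitabine rested on each gemcitabine library. Without replicate I, 1 member (E2F2) was called together with 66 of 17424 genes, and without replicate II again 1 (E2F2), with 64 of 17442 genes.

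**Figure D2:**
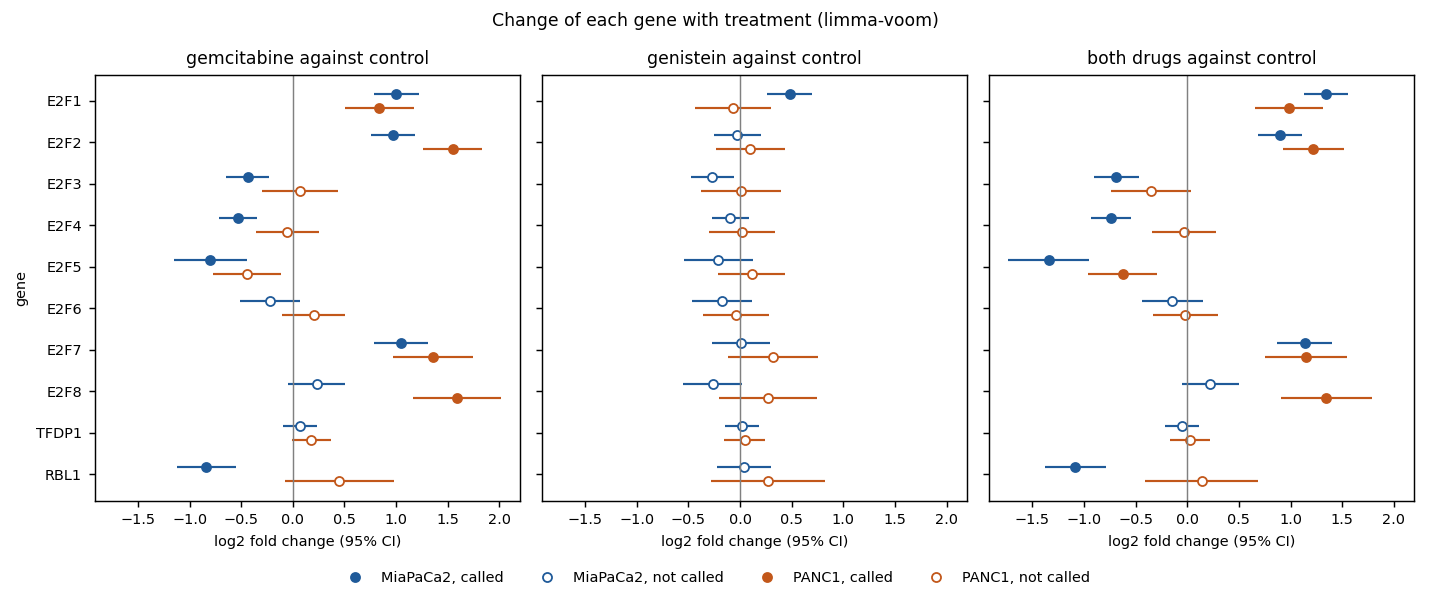
Log2 fold change against control of each member (points) with its 95% interval (bars) for gemcitabine, genistein and both drugs in MiaPaCa2 and PANC1, where filled points were called. E2F1, E2F2 and E2F7 lie to the right of 0 in both lines with gemcitabine and with both drugs (0.84 to 1.55). Of the genistein points, E2F1 in MiaPaCa2 (0.48) was the single one called. Points off 0 that were not called include E2F3 (-0.27) and E2F8 (-0.26) in MiaPaCa2 and E2F7 and E2F8 in PANC1 (median 0.30).

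E2F1 (ENSG00000101412, GRCh37 20:32263283-32274191, minus strand), the best known activator and also an inducer of apoptosis after DNA damage, rose with gemcitabine in both lines. In MiaPaCa2 its level was 28.3 and 29.9 FPKM in the controls, 66.0 and 61.3 with gemcitabine, 43.8 and 37.4 with genistein and 76.5 and 81.1 with both drugs, so that none of the 4 groups overlapped. The change with gemcitabine was 2.005-fold (log2 1.003, SE 0.10, adjusted p = 1.79e-05) and with both drugs 2.54-fold (log2 1.34, SE 0.10, adjusted p = 6.05e-07). In PANC1 the level was 53.4 and 44.3 FPKM in the controls, 99.6 and 88.6 with gemcitabine, 47.8 and 45.4 with genistein and 96.3 and 119 with both drugs. There the gemcitabine groups stood above the controls and the genistein libraries lay within the range of the controls. The log2 fold changes were 0.84 with gemcitabine (SE 0.14, adjusted p = 0.0152) and 0.99 with both drugs (SE 0.14, adjusted p = 0.00377). Without gemcitabine replicate I the E2F1 value in PANC1 was 0.76 (adjusted p = 0.125), and without replicate II 0.93 (adjusted p = 0.104). E2F1 has the highest exon GC content of the members, 61.6%, and GC correction lowered its MiaPaCa2 gemcitabine change to 0.66 (adjusted p = 2.91e-05) and that with both drugs to 0.97.

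E2F1 was also the single member called with genistein alone, in MiaPaCa2. At 1 of 10 members this was close to the background of 8.31% of all genes. E2F1 rose there on the log2 scale by 0.48 (SE 0.10, adjusted p = 0.0125), and the 2 genistein libraries lay above both controls. The call held in 11 of 17 alternatives. It was lost when FPKM replaced counts and with all 16 libraries in 1 model. The call was lost without genistein replicate I (0.38, adjusted p = 0.103), without control replicate I (0.45, adjusted p = 0.137) and without control replicate II (0.52, adjusted p = 0.0761). In PANC1 the E2F1 value with genistein was -0.07 (95% interval -0.44 to 0.30), and the difference between the lines was -0.60 (SE 0.22) with an adjusted p of 0.347, so a difference between the lines was not shown.

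E2F2 (ENSG00000007968, 1:23832930-23857725, minus strand), an activator at low level in these cells, rose in both lines. In MiaPaCa2 it measured 5.90 and 5.97 FPKM in the controls, 13.9 and 13.4 with gemcitabine, 5.94 and 5.62 with genistein and 14.1 and 12.1 with both drugs. In PANC1 it measured 6.61 and 5.97 FPKM in the controls, 19.6 and 18.7 with gemcitabine, 7.47 and 7.66 with genistein and 16.5 and 16.8 with both drugs. The gemcitabine and combination libraries stood clear of the controls in both lines. The log2 fold change with gemcitabine was 0.97 in MiaPaCa2 (SE 0.10, adjusted p = 2.07e-05) and 1.55 in PANC1 (SE 0.12, adjusted p = 0.00128), and E2F2 was the PANC1 member whose call held whichever library was left out. The line difference in that response was 0.48 (SE 0.17, adjusted p = 0.0743). It passed without PANC1 control replicate I (0.67, adjusted p = 0.0167) and with GC correction (0.79, adjusted p = 0.000299). With both drugs E2F2 changed by 0.90 in MiaPaCa2 (adjusted p = 1.38e-05) and 1.22 in PANC1 (adjusted p = 0.00126).

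E2F3 (ENSG00000112242, 6:20402110-20493945, plus strand), the activator most tied to cell cycle entry, moved apart from E2F1 and E2F2. In MiaPaCa2 it measured 11.7 and 12.1 FPKM in the controls, 9.70 and 9.51 with gemcitabine, 9.87 and 9.95 with genistein and 8.50 and 7.40 with both drugs. It fell by 0.44 on the log2 scale with gemcitabine (SE 0.10, adjusted p = 0.00364) and by 0.69 with both drugs (adjusted p = 0.000105). The genistein value was -0.27 (adjusted p = 0.0882). In PANC1 the controls spanned 10.0 and 13.8 FPKM and held the gemcitabine libraries (13.3 and 13.6) and the genistein libraries (12.02 and 12.6) within that range, while the combination gave 11.4 and 9.62. The PANC1 value with both drugs was -0.35 (adjusted p = 0.181), and it was called without control replicate I (-0.57, adjusted p = 0.0225) and with GC correction (-0.40, adjusted p = 0.0445). The E2F3 call for gemcitabine in MiaPaCa2 is near the fold limit and was lost when FPKM replaced counts (-0.28, adjusted p = 0.151). It also fell short of that limit with library size alone (-0.33, adjusted p = 0.0207) and with all 16 libraries in 1 model (-0.38, adjusted p = 0.0369).

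The E2F3 gene makes a long protein, E2F3a, and a shorter one, E2F3b, from separate starts, and the isoform table separates them. The downstream transcript (ENST00000535432) took 60.3% to 78.8% of the E2F3 isoform FPKM over the 16 libraries (median 68.3%), and the upstream transcript (ENST00000346618) took 21.2% to 39.7%. The printed E2F3 window with TTTCGCG belongs to the upstream start, and the RefSeq window of the downstream start holds neither word. Cufflinks divides short single reads between these transcripts by estimate, so the shares are described without a test. For E2F1 a single isoform was listed, at 28.3 to 119 FPKM, so its reads could not be divided between isoforms.

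Among the classical repressors, E2F4 (ENSG00000205250, 16:67226058-67232821, plus strand), the main E2F of resting cells and of the DREAM complex, fell in MiaPaCa2. The MiaPaCa2 libraries gave 103.4 and 94.9 FPKM in the controls, 83.3 and 65.5 with gemcitabine, 106.5 and 94.9 with genistein and 60.1 and 65.8 with both drugs. The gemcitabine and combination libraries lay below both controls, and the genistein libraries did not. The fall was 0.53 on the log2 scale with gemcitabine (SE 0.09, adjusted p = 0.000471) and 0.74 with both drugs (SE 0.09, adjusted p = 2.14e-05). In PANC1 the libraries gave 71.7 and 55.6 FPKM in the controls, 77.6 and 68.4 with gemcitabine, 83.2 and 68.0 with genistein and 76.7 and 78.0 with both drugs. The log2 fold changes there, from counts, were -0.05 for gemcitabine (95% interval -0.36 to 0.25) and -0.03 for both drugs (95% interval -0.34 to 0.28). Mean FPKM went the other way, from 63.7 in the controls to 73.0 with gemcitabine and 77.4 with both drugs. E2F4 is GC-rich (58.8% of exon bases), and GC correction made the MiaPaCa2 fall with gemcitabine larger, at -0.78 (adjusted p = 2.17e-06), and with both drugs -1.04 (adjusted p = 8.17e-08). When FPKM replaced counts, the gemcitabine call was lost (-0.42, adjusted p = 0.0518).

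E2F5 (ENSG00000133740, 8:86089389-86129387, plus strand), the close relative of E2F4, also fell in MiaPaCa2. Its MiaPaCa2 libraries gave 12.1 and 15.2 FPKM in the controls, 6.64 and 10.8 with gemcitabine, 9.35 and 9.37 with genistein and 6.19 and 4.88 with both drugs. Every treated library, those with genistein alone included, was below both controls. By limma-voom on counts the genistein value was -0.21 (adjusted p = 0.409) and was not called. E2F5 fell 1.74-fold with gemcitabine (log2 -0.80, SE 0.16, adjusted p = 0.00233) and 2.53-fold with both drugs (log2 -1.34, SE 0.18, adjusted p = 6.10e-05). When FPKM replaced counts, the gemcitabine call was lost (-0.62, adjusted p = 0.0868). In PANC1 the libraries gave 27.1 and 28.6 FPKM in the controls, 20.3 and 26.5 with gemcitabine, 29.4 and 37.3 with genistein and 24.0 and 17.5 with both drugs, and E2F5 fell with both drugs by 0.63 on the log2 scale (SE 0.14, adjusted p = 0.0213). That call was lost without combination replicate II (-0.49, adjusted p = 0.105) and without control replicate II (-0.57, adjusted p = 0.0546). It was likewise lost in FPKM (-0.42, adjusted p = 0.198), with only the groups compared (-0.62, adjusted p = 0.139) and with library size alone (-0.47, adjusted p = 0.0612), and it held in 10 of 17 alternatives. The PANC1 gemcitabine value was -0.44 (adjusted p = 0.0939), and it passed with GC correction (-0.58, adjusted p = 0.00288). E2F5 shares 18.8% of its exon length with RBIS and an RNA gene on the opposite strand, and the strand setting of the counting is not given in the sources used here.

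E2F6 (ENSG00000169016, 2:11584501-11606303, minus strand), which lacks a pocket protein binding region and represses through Polycomb complexes, was not called by any treatment. The MiaPaCa2 libraries gave 9.001 and 9.48 FPKM in the controls, 9.20 and 9.05 with gemcitabine, 8.68 and 8.37 with genistein and 10.3 and 8.85 with both drugs, and the PANC1 libraries gave 14.5 and 15.1 FPKM in the controls, 20.1 and 18.9 with gemcitabine, 13.4 and 16.006 with genistein and 18.4 and 17.1 with both drugs. The log2 fold change with gemcitabine was -0.22 in MiaPaCa2 (95% interval -0.52 to 0.07) and 0.20 in PANC1 (95% interval -0.10 to 0.51). Of 8 genes of its Polycomb partners, 3 fell with gemcitabine in MiaPaCa2 (14.6% of all genes did), namely CBX3 (-0.78), MGA (-0.69) and PCGF6 (-0.40). With both drugs 5 fell and 1 rose there (20.2% and 20.3% of all genes did). In PANC1 a single partner, L3MBTL2, fell with both drugs (-0.48), where 6.9% of all genes fell.

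The atypical factor E2F7 (ENSG00000165891, 12:77415028-77459349, minus strand), which represses E2F1 and other G1/S genes and is known to be induced after DNA damage, rose in both lines. Its MiaPaCa2 libraries gave 4.87 and 4.98 FPKM in the controls, 9.71 and 8.80 with gemcitabine, 3.45 and 5.07 with genistein and 10.1 and 8.74 with both drugs. Its PANC1 libraries gave 4.94 and 5.70 FPKM in the controls, 16.9 and 17.5 with gemcitabine, 7.41 and 7.21 with genistein and 15.8 and 11.7 with both drugs. The gemcitabine and combination libraries were above all controls and all genistein libraries of their line. With gemcitabine E2F7 rose 2.07-fold in MiaPaCa2 (log2 1.05, SE 0.12, adjusted p = 5.22e-05) and 2.56-fold in PANC1 (log2 1.36, SE 0.17, adjusted p = 0.00557). With both drugs the log2 fold change was 1.14 in MiaPaCa2 (adjusted p = 1.01e-05) and 1.15 in PANC1 (adjusted p = 0.00420). The PANC1 gemcitabine call missed the threshold without gemcitabine replicate I (1.44, adjusted p = 0.0555) and without replicate II (1.27, adjusted p = 0.0814). The line difference in the E2F7 response to gemcitabine was 0.21 (95% interval -0.21 to 0.64).

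E2F8 (ENSG00000129173, 11:19245610-19263167, minus strand), which works with E2F7 on the same targets, rose in PANC1 and was not called in MiaPaCa2. In MiaPaCa2 the libraries gave 4.33 and 4.02 FPKM in the controls, 5.40 and 5.38 with gemcitabine, 3.28 and 3.56 with genistein and 5.76 and 5.53 with both drugs, and the log2 fold change with gemcitabine was 0.23 (95% interval -0.04 to 0.50, adjusted p = 0.166). In PANC1 the libraries gave 4.49 and 5.75 FPKM in the controls, 15.8 and 17.4 with gemcitabine, 6.71 and 5.99 with genistein and 17.9 and 13.1 with both drugs. In each line all 4 libraries with gemcitabine, alone or combined, were above all 4 without it. The PANC1 rise was 3.01-fold with gemcitabine (log2 1.59, SE 0.18, adjusted p = 0.00415) and 2.54-fold with both drugs (log2 1.35, SE 0.19, adjusted p = 0.00327). With gemcitabine this was the largest change among the members, with E2F2 in PANC1 (1.55) next. The gemcitabine call missed the threshold without gemcitabine replicate I (1.64, adjusted p = 0.0531) and without replicate II (1.53, adjusted p = 0.0698). The difference between the lines passed its own test, as given below.

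TFDP1 (ENSG00000198176, 13:114239036-114295788, plus strand), the DP partner of E2F1 to E2F6, was among the most abundant members and was not called by any treatment. Its MiaPaCa2 libraries gave 98.9 and 110.6 FPKM in the controls, 127 and 112.9 with gemcitabine, 103.8 and 102.4 with genistein and 114.6 and 110.99 with both drugs, and its PANC1 libraries gave 78.0 and 80.8 FPKM in the controls, 101.7 and 96.4 with gemcitabine, 80.9 and 78.6 with genistein and 95.3 and 94.6 with both drugs. With gemcitabine its log2 fold change was 0.07 in MiaPaCa2 (95% interval -0.10 to 0.23) and 0.18 in PANC1 (95% interval -0.01 to 0.37). The related TFDP2 was likewise not called with gemcitabine, at -0.14 in MiaPaCa2 (adjusted p = 0.225) and -0.03 in PANC1 (adjusted p = 0.914), and TFDP3 had at most 1 count in any library.

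RBL1 (ENSG00000080839, 20:35624752-35724400, minus strand), the pocket protein that binds mainly E2F4 and E2F5 and whose gene E2F itself drives, fell in MiaPaCa2 and not in PANC1. The MiaPaCa2 libraries gave 5.67 and 5.72 FPKM in the controls, 2.73 and 2.98 with gemcitabine, 5.70 and 5.94 with genistein and 2.97 and 2.50 with both drugs. The gemcitabine and combination libraries lay below both controls, and the genistein libraries overlapped the controls. The fall was 1.79-fold with gemcitabine (log2 -0.84, SE 0.13, adjusted p = 0.000391) and 2.12-fold with both drugs (log2 -1.09, SE 0.14, adjusted p = 3.44e-05). In PANC1 the libraries gave 4.34 and 5.77 FPKM in the controls, 6.17 and 9.13 with gemcitabine, 5.91 and 4.82 with genistein and 6.89 and 5.94 with both drugs, with a log2 fold change of 0.45 for gemcitabine (95% interval -0.08 to 0.98, adjusted p = 0.263). RBL1 has the lowest exon GC content of the members, 40.1%, and with GC correction its MiaPaCa2 fall was -0.53 with gemcitabine (adjusted p = 0.000459) and -0.68 with both drugs (adjusted p = 5.22e-05). The other pocket protein genes were not called with gemcitabine, RB1 at 0.10 in MiaPaCa2 (adjusted p = 0.575) and 0.26 in PANC1 (adjusted p = 0.588), and RBL2 at 0.01 and -0.09 (adjusted p = 0.922 and 0.786).

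The opposite-strand RNA gene that carries the RBL1 symbol, ENSG00000269846 (20:35724188-35725581, plus strand), lies across the RBL1 start and shares 15.3% of its exon length with RBL1. It had 4 and 2 counts in the MiaPaCa2 controls and 18 and 16 with gemcitabine, at under 1 FPKM throughout. Its log2 fold change there was 2.16 (SE 0.53, adjusted p = 0.00682), opposite in sign to that of RBL1, but it was too low to be called.

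Adding genistein to gemcitabine brought no member past all 3 limits by limma-voom without further correction. Set against gemcitabine, both drugs gave 0 called members in MiaPaCa2 by limma-voom (background 5.88%), edgeR (951 of 16064 genes called) or DESeq2 (765 of 16064). By limma-voom 4 members were below an unadjusted p of 0.05, namely E2F1, E2F3, E2F4 and E2F5. E2F1 passed on adjusted p but not on fold there, at 0.34 (SE 0.09, adjusted p = 0.0429; 7.34% of all genes passed on adjusted p), and without combination replicate I it passed on both (0.41, adjusted p = 0.0107). In PANC1 the same comparison gave 0 called members by limma-voom (background 0.0177%), edgeR (3 of 16909 genes called) or DESeq2 (196 of 16909). By limma-voom E2F2 and E2F3 were the 2 members below an unadjusted p of 0.05. With GC correction E2F2 was called there (-0.41, adjusted p = 0.0263), as were 1161 of 16909 genes against 3 without it. With GC correction and the replicate block it missed the threshold (-0.41, adjusted p = 0.0592). Whether the change with both drugs departs from the sum of the single changes was tested as an interaction on the log2 scale. It passed for 0 members in MiaPaCa2 (limma-voom background 0.0249%) and 0 in PANC1 (limma-voom background 0.0%) by limma-voom, edgeR and DESeq2. By limma-voom 0 had an unadjusted p under 0.05. Over all genes, DESeq2 passed 33 of 16064 in MiaPaCa2 and 4 of 16909 in PANC1, and edgeR 4 and 0. The interaction values of the members ranged from -0.33 (E2F5) to 0.25 (E2F6 and E2F8) in MiaPaCa2 and from -0.58 (RBL1) to 0.22 (E2F1) in PANC1.

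Untreated, the lines differed in 6 of the 10 members, where 52.3% of 17863 genes were called. This share of the members is close to the background. E2F1 (log2 0.70, SE 0.16, adjusted p = 0.00148), E2F5 (1.17, SE 0.13, adjusted p = 3.95e-06), E2F6 (0.52, SE 0.11, adjusted p = 0.00127) and E2F7 (0.44, SE 0.15, adjusted p = 0.0197) were higher in PANC1. E2F4 (-0.61, SE 0.12, adjusted p = 0.000729) and TFDP1 (-0.43, SE 0.07, adjusted p = 9.70e-05) were lower. The pocket protein genes RB1 (-0.76, adjusted p = 0.00668) and RBL2 (-0.96, adjusted p = 1.999e-05) were also lower in PANC1. The E2F7 call was lost without PANC1 control replicate II (0.28, adjusted p = 0.147), MiaPaCa2 control replicate I (0.41, adjusted p = 0.114) or MiaPaCa2 control replicate II (0.43, adjusted p = 0.0820), and in FPKM the E2F7 value was 0.09 (adjusted p = 0.677). Without PANC1 control replicate II, E2F4 (-0.35, adjusted p = 0.0119) and TFDP1 (-0.37, adjusted p = 0.00113) fell short of the fold limit and RBL1 was called (-0.56, adjusted p = 0.0149). With GC correction the E2F1 difference was 0.31 (adjusted p = 0.00203), below the fold limit. When FPKM replaced counts, the TFDP1 call was lost together with that of E2F7.

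The response to gemcitabine differed between the lines for 2 members, E2F8 and RBL1, where 15.3% of 17863 genes passed that test. The E2F8 response was higher in PANC1 by 1.26 on the log2 scale (SE 0.22, adjusted p = 0.00312) and that of RBL1 by 1.19 (SE 0.26, adjusted p = 0.0100). The RBL1 difference missed the threshold without MiaPaCa2 control replicate I (1.17, adjusted p = 0.0519) and without PANC1 gemcitabine replicate II (1.09, adjusted p = 0.0542), and with GC correction it was 0.73 (adjusted p = 0.000957). E2F4 was at 0.38 (adjusted p = 0.156), and it passed without PANC1 control replicate I (0.61, adjusted p = 0.0166) and with GC correction (0.77, adjusted p = 9.75e-05). E2F3 was at 0.41 (adjusted p = 0.110), and it passed without PANC1 control replicate II (0.58, adjusted p = 0.00892) and with GC correction (0.42, adjusted p = 0.0445). With E2F2, whose values stand above, GC correction thus brought the count to 5 members, while the genes that passed rose in number from 2728 to 4623 of 17863. In the response to genistein 0 members differed between the lines by limma-voom (background 0.0336%), edgeR (19 of 17863 genes passed) or DESeq2 (156 of 17863). By limma-voom E2F1 was the 1 member under an unadjusted p of 0.05.

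With both drugs the responses differed for 3 members (background 18.1%), again with E2F8 (1.04, SE 0.22, adjusted p = 0.00652) and RBL1 (1.14, SE 0.27, adjusted p = 0.0114), and also E2F4 (0.62, SE 0.18, adjusted p = 0.0312). The RBL1 difference missed the threshold without MiaPaCa2 combination replicate II (1.01, adjusted p = 0.0644). The E2F4 difference missed it without either MiaPaCa2 combination library (0.51 and 0.71, adjusted p = 0.107 and 0.0544), either MiaPaCa2 control (0.68 and 0.61, adjusted p = 0.0665 and 0.0878), PANC1 combination replicate II (0.53, adjusted p = 0.0798) or PANC1 control replicate II (0.37, adjusted p = 0.0677). With GC correction it was 0.99 (adjusted p = 7.06e-06), and in all it held in 12 of 19 alternatives. GC correction also brought E2F2 (0.53, adjusted p = 0.00380) and E2F7 (-0.30, adjusted p = 0.0446) past the threshold, while the genes that passed rose in number from 3239 to 5410. E2F5 was at 0.63 (adjusted p = 0.0546) by limma-voom and passed by edgeR (0.65, adjusted p = 0.0438) and DESeq2 (0.65, adjusted p = 0.0375). Without PANC1 combination replicate II, E2F1 (-0.65, adjusted p = 0.0388) and E2F5 (0.73, adjusted p = 0.0308) passed. Without PANC1 control replicate II, E2F1 (-0.68, adjusted p = 0.0237), E2F3 (0.43, adjusted p = 0.0376) and E2F5 (0.65, adjusted p = 0.0449) passed. The responses to gemcitabine and to both drugs share their control libraries, so the repeated E2F8 and RBL1 differences are not independent.

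**Figure D3:**
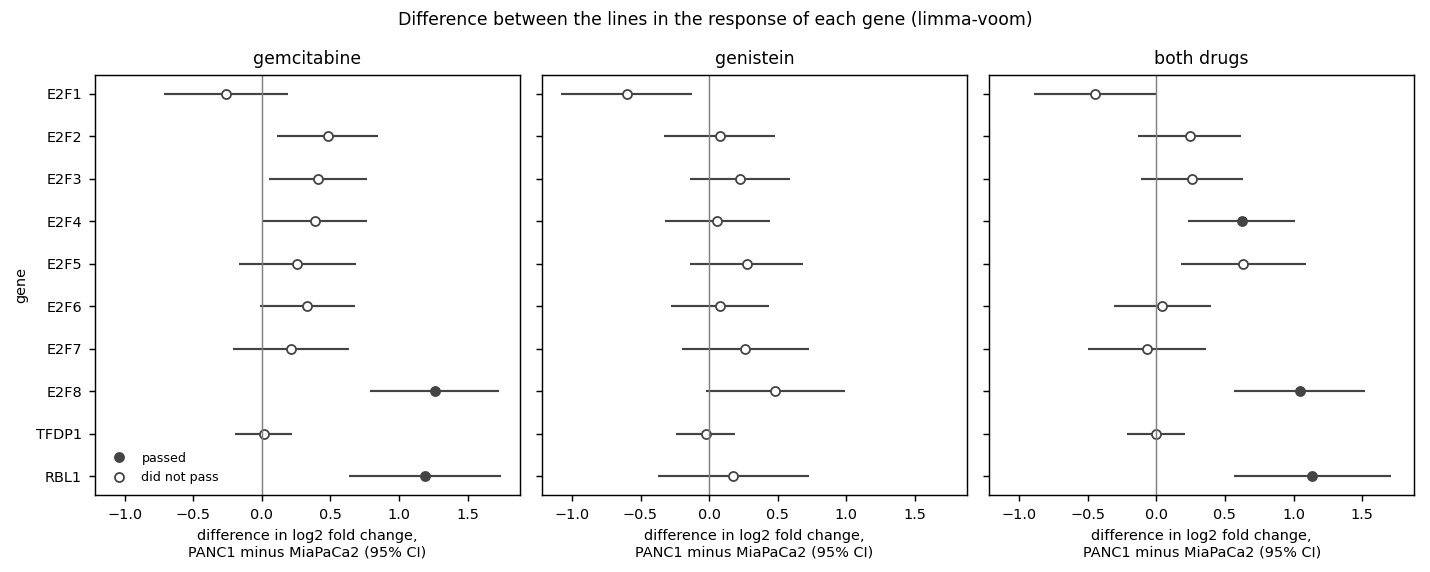
Difference in the response of each member between the lines (PANC1 minus MiaPaCa2, log2) with its 95% interval for gemcitabine, genistein and both drugs, where filled points passed. E2F8 (1.26 and 1.04) and RBL1 (1.19 and 1.14) stand to the right of 0 with gemcitabine and with both drugs, and no point passed with genistein.

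The makeup of the E2F pool shifted accordingly in per-length terms, described here without a test since it restates the values above. The summed FPKM of the activators E2F1 to E2F3 was 0.368 and 0.401 of that of E2F4 to E2F6 in MiaPaCa2 controls, 0.904 and 0.986 with gemcitabine, 0.479 and 0.470 with genistein and 1.293 and 1.265 with both drugs. In PANC1 the ratio was 0.618 and 0.645 in the controls, 1.123 and 1.06 with gemcitabine, 0.534 and 0.542 with genistein and 1.04 and 1.291 with both drugs. The activators overtook the classical repressors in RNA level with both drugs in both lines, and with gemcitabine alone in PANC1. E2F1 made up 61.7% to 81.8% of activator FPKM and E2F4 56.0% to 85.5% of repressor FPKM over the 16 libraries, so these genes set most of the ratio. The share of the atypical E2Fs in all E2F FPKM was 5.12% and 5.10% in MiaPaCa2 controls and 7.41% and 7.72% with gemcitabine. In PANC1 it was 4.89% and 6.55% in the controls and 11.5% and 12.9% with gemcitabine.

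**Figure D4:**
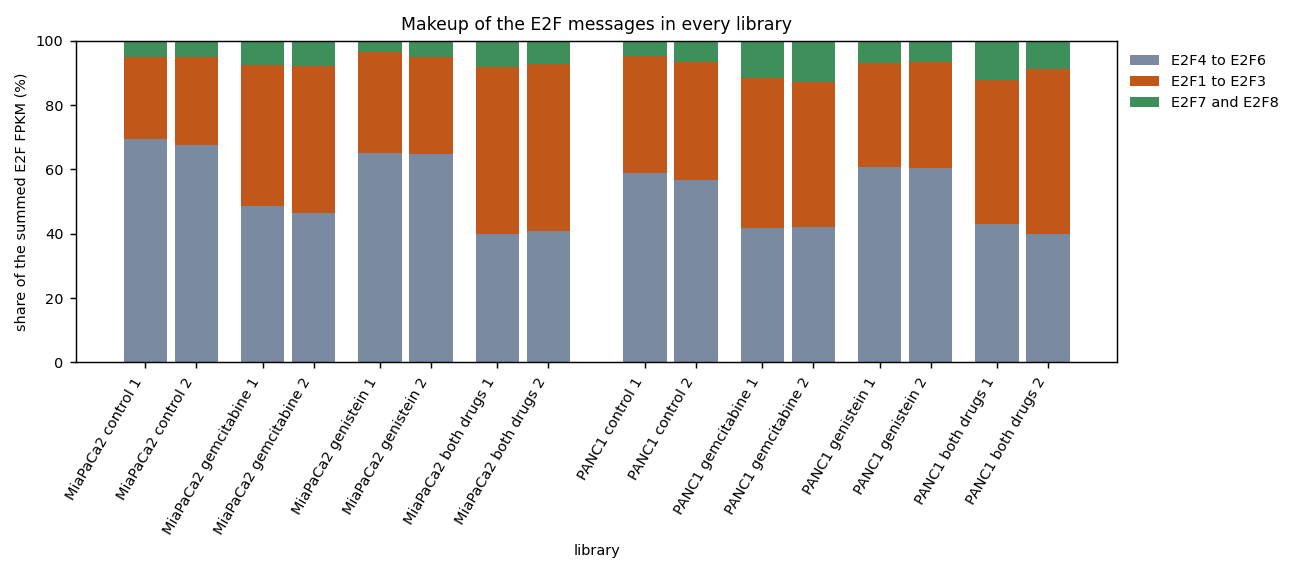
Share of summed E2F FPKM held by activators (E2F1 to E2F3), classical repressors (E2F4 to E2F6) and atypical repressors (E2F7 and E2F8) in each of the 16 libraries, as stacked bars from 0 to 100%. The activator share was 25.5% and 27.2% in MiaPaCa2 controls and 51.7% and 51.8% with both drugs, and 36.3% and 36.7% in PANC1 controls and 44.8% and 51.4% with both drugs.

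Genes that E2F is known to drive at the G1/S border rose in part with gemcitabine. Of 31 such targets, among them replication licensing, nucleotide synthesis and DNA polymerase genes, 14 rose in MiaPaCa2 (15.0% of all genes did) and the other 17 were not called. Their median log2 fold change was 0.36, beside -0.01 over all genes, and CDT1 (1.30), CCNE2 (0.998), TK1 (0.95) and CCNE1 (0.81) changed most. In PANC1 21 of the 31 rose (4.49% of all genes did) with a median of 0.70 beside 0.03, led by the cyclin gene CCNE2 (2.09), the exonuclease gene EXO1 (1.41), the origin licensing gene CDC6 (1.36) and the phosphatase gene CDC25A (1.10). Without gemcitabine replicate I 4 of the 31 were called in PANC1 and without replicate II 2, beside the 66 and 64 genes called in all, while the list medians were 0.65 and 0.70. With both drugs 15 rose (20.3% of all genes did) and MCM5 fell (-0.46) in MiaPaCa2, led by TK1 (1.53), CDT1 (1.19) and RRM2 (1.01), and 18 rose in PANC1 (10.2% of all genes did), led by CCNE2 (1.38), CDC6 (1.35) and EXO1 (1.22). With only the groups compared, 4 rose in PANC1 with both drugs, where 574 of 16697 genes were called. With GC correction and gemcitabine 14 rose in MiaPaCa2 (median 0.28, 4376 of 16064 genes called). In PANC1 24 then rose (median 0.76, 3021 of 16909 genes called). With GC correction and both drugs 14 rose and 1 fell in MiaPaCa2 (median 0.34, 6278 genes called). In PANC1 21 then rose (median 0.60, 4891 genes called). With genistein alone TK1 (0.67) and RRM2 (0.53) rose in MiaPaCa2 (4.18% of all genes did). The response to gemcitabine was higher in PANC1 for 5 of the 31 (6.21% of all genes were), including POLA1 (1.01), EXO1 (0.75), CDC6 (0.71) and GINS2 (0.50).

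Genes of the G2/M program, which E2F4 and RBL1 or RBL2 hold down within DREAM and which MYBL2 and FOXM1 turn on later in the cycle, moved the other way. Of 19, 12 fell with gemcitabine in MiaPaCa2 (14.6% of all genes did) with a median of -0.56, led by CENPE (-2.29), TTK (-1.21), CENPF (-1.12) and CDC20 (-0.93). In PANC1 6 fell (3.03% of all genes did) with a median of -0.26, led by PLK1 (-1.22), KIF20A (-1.09), CDC20 (-0.96) and CCNB1 (-0.89). Without gemcitabine replicate I 1 of the 19 was called in PANC1 and without replicate II 2. With GC correction 8 fell and 1 rose with gemcitabine in MiaPaCa2 (median -0.28), and 9 fell and 1 rose in PANC1 (median -0.33). With both drugs 9 fell in MiaPaCa2 (20.2% of all genes did) with a median of -0.50, and 11 fell in PANC1 (6.9% of all genes did) with a median of -0.73. With GC correction the MiaPaCa2 median with both drugs was -0.25, with 8 lower and 1 higher, and with only the groups compared 4 fell in PANC1. Of the 6 MuvB and MYBL2 genes, LIN9 fell with gemcitabine in MiaPaCa2 (-0.81), where 14.6% of all genes fell, so that 1 of 6 was close to the background. LIN54 (1.22) and MYBL2 (0.78) rose in PANC1, where 4.49% of all genes did.

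Among 9 genes for the cyclins, kinases and phosphatase that act on pocket proteins, of which CCNE1, CCNE2 and CDC25A are also in the G1/S list, 5 rose and 1 fell with gemcitabine in MiaPaCa2 (15.0% and 14.6% of all genes did) and 4 rose in PANC1 (4.49% of all genes did). Cyclin E genes rose in both lines, CCNE1 by 0.81 in MiaPaCa2 and 1.04 in PANC1 and CCNE2 by 0.998 and 2.09. CCND3 rose (0.79) and CCND1 fell (-0.59) in MiaPaCa2, so the cyclin D genes moved in opposite directions there. The kinase gene CDK2 rose in PANC1 (0.68).

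**Figure D5:**
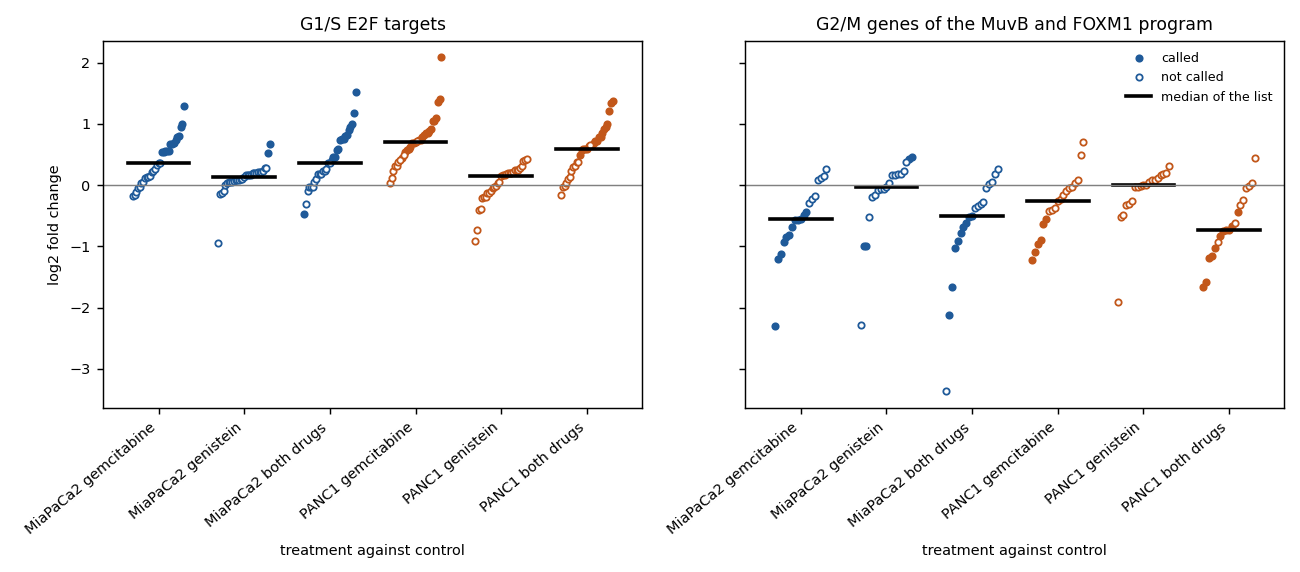
Log2 fold change against control of the genes of the G1/S target list (31) and the G2/M list (19) for gemcitabine, genistein and both drugs in each line, where each point is a gene, filled points were called and bars give the medians. With gemcitabine the G1/S medians are 0.36 in MiaPaCa2 and 0.70 in PANC1, and the G2/M medians are -0.56 and -0.26.

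The genes whose levels ran most like E2F1, E2F7 and E2F8 were found by Pearson correlation of log2 CPM over the 16 libraries after each line's mean was removed, among 17848 genes. The points share 8 groups, so a gene that responded to gemcitabine correlates with any other that did, and libraries also share depth and GC trend. Nearest to E2F1 were SPHK1 (r = 0.990), NFKB2 (0.984), TCF19 (0.983), TK1 (0.980) and KLHL21 (0.979). For E2F7 the nearest were DSN1 (0.991), AMOTL1 (0.970), CDK2 (0.967), PSMC3IP (0.964) and DBR1 (0.962), and for E2F8 they were EXO1 (0.955), DTL (0.948), HECA (0.948), ZNF669 (0.944) and MGME1 (0.942). Among the members themselves, E2F2 and E2F7 were the most alike (r = 0.929), followed by E2F1 and E2F2 (0.895), and E2F1 and E2F5 the most opposed (r = -0.944).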

How the data were processed

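RNA sequencing of 16 libraries, 8 groups of 2, was analysed. Per the submitters' processing notes and the study's methods, the authors made poly-A libraries, sequenced short single reads, aligned them with TopHat2 2.0.4 (GRCh37) and discarded multiply aligned reads with Picard 1.29. SAMtools is also named. The authors counted reads per gene with HTSeq 0.6.1, and these deposited counts are whole numbers without normalization. The authors calculated FPKM per gene and per isoform with Cufflinks 2.1.1, so the deposited FPKM are values already adjusted for transcript length and sequencing depth. The annotation release and the strand setting are not given in the sources used here.

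Members were matched by symbol in the FPKM table and joined to the counts by Ensembl identifier. The members and gene lists were chosen with earlier results of these data known. All 10 members are named, other genes only as list members, at most the 4 largest called changes per list and comparison, or as the 5 genes most alike to E2F1, E2F7 and E2F8.

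Counts were TMM-normalized with edgeR 4.0.16 after its filterByExpr, and fitted by limma-voom in limma 3.58.1 under R 4.3.3, with Benjamini-Hochberg adjustment over all genes, following the study's thresholds. The 8 libraries of a line shared 1 model, and all 16 did for comparisons of the lines. Line differences and interactions were judged by adjusted p alone. For the untreated lines the FPKM limit applied to either line. As alternatives, DESeq2 1.42.0 (Wald test) and edgeR's quasi-likelihood fit were run, as were other scalings, limma-trend on log2(FPKM + 1) and log2(FPKM + 0.1), no low-count filter, a GC correction (loess, span 0.3, degree 1), a replicate block, other sets of libraries and fits that left out each library. Coordinates and exon GC content were read from GENCODE v44lift37 (GRCh37), possibly not the release the authors used, and promoter sequences from RefSeq. The procedure was tested on simulated data.

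Depth ran from 12943482 to 31991860 counted reads, and single members had from 68 to 5431 reads per library. Replicate numbers were not treated as pairs in the main fits.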

Additional observations from a re-analysis of the deposited data

Results flagged for a closer look

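The response to treatment differed between the lines by a test of the difference itself (limma-voom, all 16 libraries) in 5 cases. With gemcitabine 2 of the 10 members differed, where 15.3% of all genes did, and with both drugs 3, where 18.1% did, so these shares of the members are not far from the background. The response of RBL1 to gemcitabine was higher in PANC1 than in MiaPaCa2 by 1.19 on the log2 scale, and its response to both drugs by 1.14. The response of E2F8 was higher in PANC1 by 1.26 with gemcitabine and by 1.04 with both drugs. The response of E2F4 to both drugs was higher in PANC1 by 0.62, and it passed in 12 of 19 alternatives. RBL1 and E2F4 fell in MiaPaCa2 and were not called in PANC1, whereas E2F8 rose in PANC1 and was not called in MiaPaCa2.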

How the results depend on the processing

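Among the member results that had passed on adjusted p, 36 in number and with 616 values under the alternatives, 562 kept their direction and side of the threshold, 52 kept their direction and lost the call, 2 gained it and 0 reversed. Since nearly all of these had been called, few could gain a call. The alternative with adjusted p alone reuses the main fit, so it could neither reverse a value nor lose a call. It gave 1 of the 2 gains. Member results that had missed the threshold passed it in 28 of 1795 values, 10 of them in the line difference for gemcitabine and 11 in that for both drugs. With FPKM in place of counts (either pseudocount) the members called fell from 7 to 4 with gemcitabine in MiaPaCa2, and from 1 to 0 with genistein. With all 16 libraries in 1 model the genistein count in MiaPaCa2 was also 0. With adjusted p alone, 1 member (E2F1) was called in MiaPaCa2 for both drugs against gemcitabine. With only the groups compared, 3 of the 5 members were called in PANC1 with both drugs, and 1 of 3 line differences remained for both drugs. With GC correction, 1 member (E2F2) was called in PANC1 for both drugs against gemcitabine, and 5 members differed between the lines in the response to gemcitabine and 5 in that to both drugs, while the genes that differed rose in number from 2728 to 4623 and from 3239 to 5410 of 17863. With GC correction and the replicate block 4 differed in the response to gemcitabine, and with library size alone 4. The cause was not tested. Library size alone shifted the median of all genes by 0.107 (gemcitabine, MiaPaCa2), 0.111 (gemcitabine, PANC1) and 0.158 (both drugs, PANC1) on the log2 scale. For the line differences the shift was 0.101 (gemcitabine) and 0.163 (both drugs).

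Leaving out each library gave counts of 0 to 1 (genistein, MiaPaCa2), 0 to 1 (both drugs against gemcitabine, MiaPaCa2), 1 to 4 (gemcitabine, PANC1), 4 to 6 (both drugs, PANC1), 1 to 4 (line difference, gemcitabine) and 1 to 5 (line difference, both drugs). Over all genes, without either PANC1 gemcitabine library 66 of 17424 and 64 of 17442 were called against 1272 of 16909, and from 857 to 5463 genes passed in the line difference for gemcitabine. A library left alone in its group was assumed to vary like the other groups. The 2 libraries per group limit what such a count can show.

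Deviations of same-numbered libraries correlated from -0.30 to 0.16 in MiaPaCa2 and from -0.57 to 0.33 in PANC1. After GC correction the ranges were -0.14 to 0.04 and -0.22 to 0.06. With 2 libraries per group these correlations cannot tell whether same-numbered libraries were handled together. With the replicate block the count with both drugs in PANC1 was 4 (E2F5 at -0.63, adjusted p = 0.0545 by limma-voom), and the other member counts were unchanged.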
